A study of Danio rerio with 15 samples.

Results

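The genes described here are 4 keratins, krt8 (ENSDARG00000058358), krt18a.1 (ENSDARG00000018404), krt4 (ENSDARG00000017624) and krt5 (ENSDARG00000058371), together with the epithelial adhesion gene epcam (ENSDARG00000040534). They were chosen by identifier, and all 5 were present among the 33752 identifiers of the count tables and among the 21277 genes abundant enough to be tested. RNA was sequenced from testis tissue of adult wild-type zebrafish labelled control, depleted or recovering. The sources used here do not say of what or by what means testes were depleted, how long they recovered, or whether a library came from 1 or several fish. Of 15 samples described, 14 were analysed here, namely 4 control, 5 depleted and 5 recovering libraries, since control replicate 2 was not used.

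Keratins build the intermediate filaments of epithelial cells, and each filament needs a type I and a type II chain that pair with each other. krt8 (type II) and krt18a.1 (type I) belong to the classical pair of simple epithelia, krt4 encodes a type II keratin prominent in the zebrafish skin surface layer, and krt5 encodes a type II keratin of stratified epithelia such as the epidermis. epcam encodes a cell-surface protein through which epithelial cells adhere. In the human testis, keratins 8 and 18 are known from immature Sertoli cells, the somatic cells that nurse germ cells. In the RefSeq annotation of the assembly GRCz12tu, krt5, krt8, krt18a.1 and its copy krt18a.2 follow each other with 0 genes between neighbours, and krt4 lies apart, with 1 gene between it and krt18b, a further type I keratin.

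Library totals ranged from 8617589 to 48646941 counts in control, from 8123444 to 10059498 in depleted and from 8661834 to 25035915 in recovering testes. Levels are given as CPM, the counts of a gene per 1e+06 counts after TMM scaling of the library totals. Differences were fitted with edgeR over all tested genes, and a gene was called changed at a Benjamini-Hochberg adjusted p under 0.05. The label testis was checked against marker genes. Of 14 listed germ cell markers 12 were matched, 11 by symbol and 1 through a synonym, and their summed level was 7114 to 8082 CPM in control, 20.9 to 3618 CPM in depleted and 5822 to 8774 CPM in recovering libraries. The 4 matched Sertoli cell markers summed to 1307 to 1788 CPM in control, 1805 to 4366 CPM in depleted and 1412 to 2683 CPM in recovering libraries. The 6 Leydig cell markers summed to 705 to 1348 CPM, 1074 to 13774 CPM and 2615 to 3742 CPM in the same order. Libraries control 3 and recovering 4 stood apart in krt5 and in several other surface epithelial genes, so results are also given without these libraries.

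The simple epithelial keratins krt8 and krt18a.1 and the keratin krt4 were more than 11 times as abundant in depleted as in control testes, and epcam was 3.83 times as abundant. In recovering testes these 4 genes were lower than in depleted testes. krt5 behaved differently, with its highest levels by far in control 3 and recovering 4. Of the 5 genes, 4 rose from control to depleted testes, where 66.3% of all tested genes were called, 34.2% higher and 32.1% lower. From depleted to recovering testes krt8, krt18a.1, krt4 and epcam fell again, where 59.2% of all tested genes were called, 28.7% higher and 30.5% lower. Between recovering and control testes 1 of the 5 was called, krt18a.1, which was higher, where 0.451% of all tested genes were called, 0.418% higher and 0.0329% lower. The comparisons share groups of libraries, and are therefore not independent of each other.

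**Figure D1:**
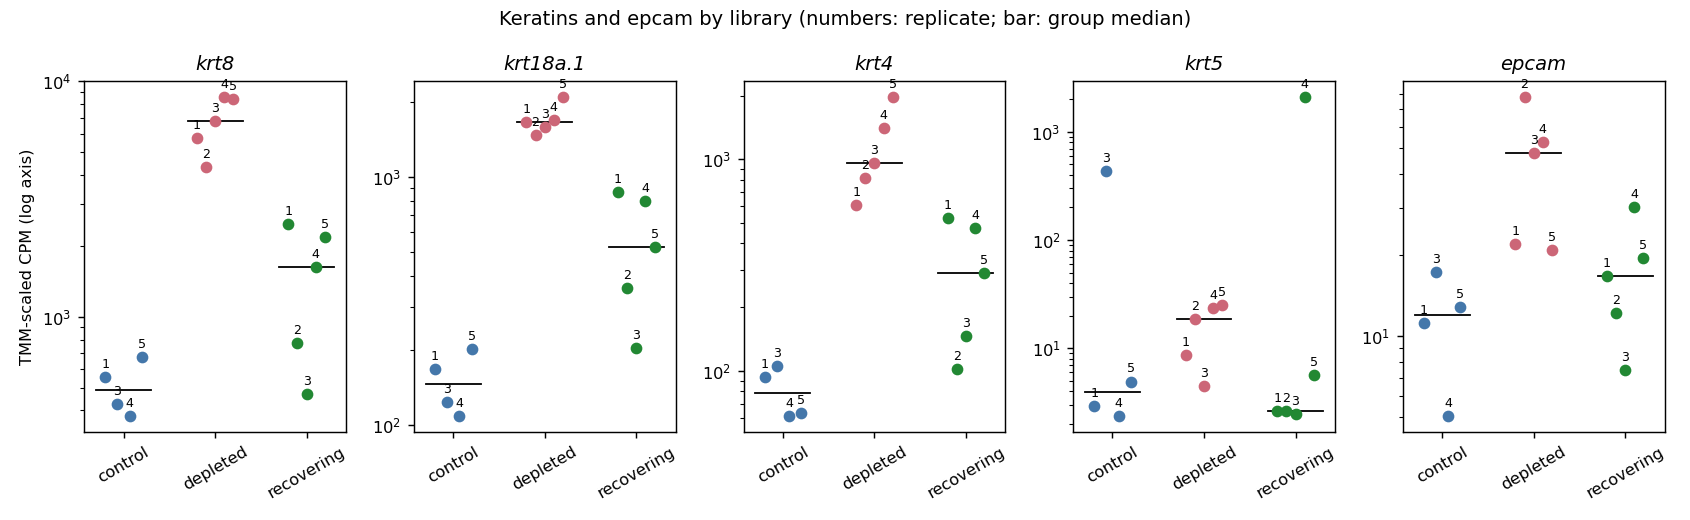
TMM-scaled CPM on a log axis of krt8, krt18a.1, krt4, krt5 and epcam in each control, depleted and recovering library, with replicate numbers beside the points and the group median as a bar. The depleted libraries lie above all control libraries for every gene except krt5, for which control 3 (434 CPM) and recovering 4 (2101 CPM) are the highest points.

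krt8 was the most heavily counted of the 5 genes. It stood at 553, 425, 379 and 676 CPM in control replicates 1, 3, 4 and 5. In depleted replicates 1 to 5 it stood at 5745, 4319, 6811, 8577 and 8437 CPM. In recovering replicates 1 to 5 it stood at 2473, 774, 467, 1631 and 2171 CPM. Depleted libraries lay above all others, whereas recovering replicate 3 fell inside the control range and recovering replicate 2 just above it. As a share of all counts, krt8 took 0.0566% ± 0.0145 (SD, n = 4) in control, 0.575% ± 0.121 (SD, n = 5) in depleted and 0.159% ± 0.0907 (SD, n = 5) in recovering testes. In edgeR the rise from control to depleted testes was 13.3-fold, or 3.74 on the log2 scale (SE 0.49, adjusted p = 6.37e-05). It was -2.17 (SE 0.42, adjusted p = 0.00117) from depleted to recovering testes. Recovering testes exceeded control testes by 1.56 on the log2 scale (SE 0.44), with an adjusted p of 0.103.

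Its filament partner krt18a.1 followed the same order of groups. The control libraries held 169, 124, 109 and 202 CPM in replicates 1, 3, 4 and 5. The depleted libraries held 1662, 1474, 1595, 1702 and 2098 CPM in replicates 1 to 5, the tightest spread among the depleted values of the 5 genes, with the highest library at 1.42 times the lowest. The recovering libraries held 873, 358, 205, 801 and 523 CPM in replicates 1 to 5. The 3 groups did not overlap for this gene, although recovering replicate 3 came close to control replicate 5. Groups without overlap were seen in 25.5% of all tested genes for depleted over control testes, in 14.5% for recovering under depleted testes and in 6.49% for recovering over control testes. krt18a.1 rose 11.3-fold in depleted testes, or by 3.50 on the log2 scale (SE 0.41, edgeR adjusted p = 3.84e-05), and fell by 1.63 from depleted to recovering testes (SE 0.34, adjusted p = 0.00196). It remained higher in recovering than in control testes, at a log2 fold change of 1.87 (SE 0.37, adjusted p = 0.0496). This last call lay at the threshold and was lost in 11 of 26 alternatives, among them the fits without control replicate 1 (adjusted p = 0.124), 3 (0.153), 4 (0.211) or 5 (0.0754) and without recovering replicate 1 (0.120), 2 (0.0572), 4 (0.110) or 5 (0.0661). The neighbouring copy krt18a.2, singled out for its position, never exceeded 10.3 CPM, reached in depleted replicate 4. How reads shared between the copies were counted is not given in the sources used here.

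krt4 had the largest of the fitted rises in depleted testes, 3.83 on the log2 scale (SE 0.54, edgeR adjusted p = 9.57e-05), a 14.2-fold difference, but this did not exceed the rises of krt8 and krt18a.1 by more than their standard errors. Control replicates 1, 3, 4 and 5 stood at 93.5, 105, 61.3 and 63.3 CPM. Depleted replicates 1 to 5 stood at 607, 815, 955, 1403 and 1968 CPM, a spread of 3.24 times between the lowest and the highest. Recovering replicates 1 to 5 stood at 526, 102, 146, 474 and 290 CPM. Depleted libraries lay above all the others, and recovering replicate 2 lay just under control replicate 3. The log2 fold change from depleted to recovering testes was -1.90 (SE 0.45, adjusted p = 0.00383). Recovering testes stood 1.93 above control testes on the log2 scale (SE 0.49), with an adjusted p of 0.0782. Recovering replicates 1, 4 and 5 were the 3 highest of their group for krt8, krt18a.1, krt4 and epcam alike, and replicates 2 and 3 the lowest.

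epcam was far less abundant than these keratins in counts and changed less. It stood at 11.2, 17.3, 5.05 and 12.8 CPM in control replicates 1, 3, 4 and 5. It stood at 22.1, 77.7, 48.1, 52.7 and 21.0 CPM in depleted replicates 1 to 5. It stood at 16.7, 12.2, 7.51, 30.3 and 19.5 CPM in recovering replicates 1 to 5. Depleted testes did not overlap with control testes, but depleted replicates 1 and 5 lay below recovering replicate 4. The order of the depleted libraries was not that of the keratins, since replicate 2, lowest for krt8 and krt18a.1, was highest for epcam, and replicate 5, highest for krt18a.1 and krt4, was lowest. epcam rose by 1.94 on the log2 scale in depleted testes (SE 0.49, edgeR adjusted p = 0.00392) and fell by 1.37 from depleted to recovering testes (SE 0.45, adjusted p = 0.0189). The fall was no longer called without depleted replicate 2 (log2 fold change -1.02, adjusted p = 0.0545), among libraries under 20000000 counts (-1.15, adjusted p = 0.0643) or with replicate number as a block (-1.26, adjusted p = 0.0604). Between recovering and control testes the log2 fold change was 0.57 (SE 0.47, adjusted p = 0.620), a difference smaller than the spread between replicates.

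**Figure D2:**
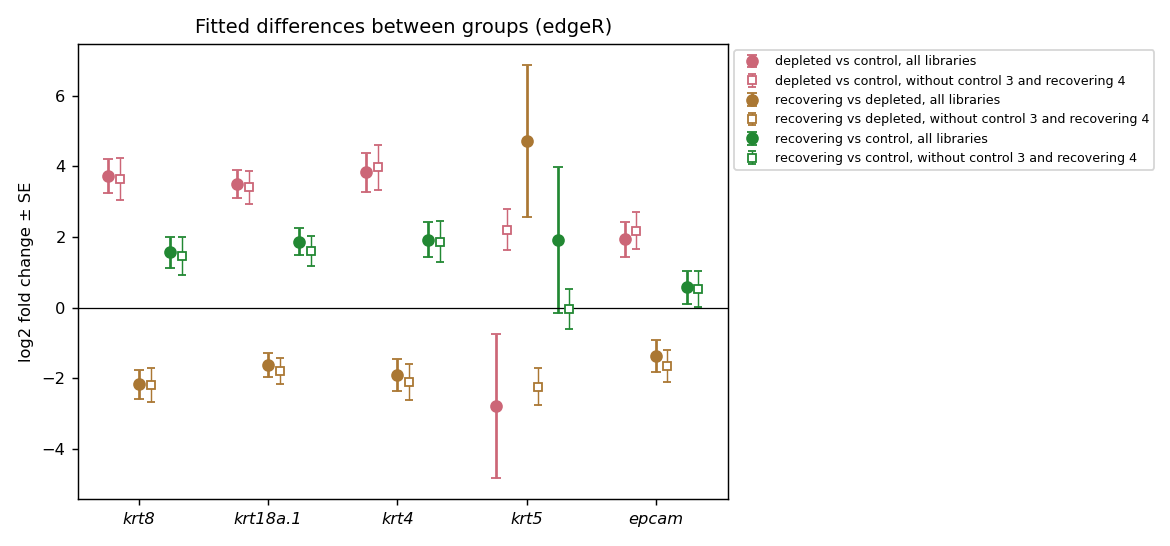
Log2 fold changes with standard errors of the 5 genes in the 3 comparisons, from edgeR fits of all libraries (filled circles) and of the libraries without control 3 and recovering 4 (open squares). The fitted values of krt8, krt18a.1, krt4 and epcam move little between the fits, whereas those of krt5 change sign in all 3 comparisons.

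All 5 genes are described as shares of RNA from whole testes. In such shares, more or fewer cells of a type and more or less RNA per cell cannot be told apart. Nor can either be told from a change in the RNA of all other cells, such as germ cells. Several marker lists also differed between the groups, some lower and some higher in depleted testes. Of the 12 tested germ cell markers 7 were lower and 0 higher in depleted than in control testes, where 32.1% of all tested genes were lower and 34.2% higher, with a median log2 fold change of -2.44 against 0.03 over all tested genes. In the reverse step, from depleted to recovering testes, 5 germ cell markers rose, 0 fell and 7 were not called. Among all tested genes 28.7% were higher and 30.5% lower in that step. By library, the germ cell markers summed to 2624, 3618, 115, 326 and 20.9 CPM in depleted replicates 1 to 5. Their sums in recovering replicates 1 to 5 were 5822, 7404, 8774, 5886 and 5955 CPM. All 6 Leydig cell markers and 2 of 4 Sertoli cell markers, gsdf and fshr, were higher in depleted testes, beside 34.2% of all tested genes. The 3 matched of 4 liver markers were called higher too. Without control 3 and recovering 4, 1 of the 3 was called higher, beside 29.8% of all genes in that fit. The liver markers summed to 3417, 467, 80.9, 9695 and 577 CPM in depleted replicates 1 to 5, against 17.6 to 193 CPM in control and 39.7 to 1092 CPM in recovering libraries. The liver genes fabp10a and fgb had depleted medians of 11.02 and 4.38 CPM, below their control medians of 14.0 and 10.4 CPM, so their calls rested on depleted replicates 1 and 4. The 2 matched of 3 muscle markers rose. They summed to 104 CPM in depleted replicate 5 and to 4.10 to 13.8 CPM in the other depleted libraries. One of them, ckma, had depleted and control medians of 1.54 and 0.610 CPM, and its highest depleted value was 103 CPM. The 1 matched of 2 blood markers, the globin gene hbaa1, was at 8.32 to 140 CPM in control, 370 to 1853 CPM in depleted and 142 to 917 CPM in recovering libraries. Of the 3 matched of 5 kidney and duct markers, 0 were called in any comparison at adjusted p under 0.05 in edgeR. Of all tested genes 66.3% were called in depleted against control, 59.2% in recovering against depleted and 0.451% in recovering against control testes. The kidney and duct markers summed to 144 CPM in depleted replicate 5 and to 6.88 to 25.0 CPM in the other depleted libraries. Their sums were 16.1 to 56.7 CPM in control and 4.53 to 43.9 CPM in recovering libraries. The gut marker vil1 was called higher in depleted testes and was at most 10.6 CPM in any library. A second gut marker, fabp2, was matched but not tested, with a depleted median of 0.603 CPM and a highest depleted value of 17.2 CPM. Together these gut markers summed to 27.4 CPM in depleted replicate 2 and to 2.89 to 11.5 CPM in the other depleted libraries. The mesothelial marker aldh1a2, a retinoic acid synthesis enzyme that other testis cells may also express, was at 227 to 512 CPM in control, 2562 to 4842 CPM in depleted and 553 to 1542 CPM in recovering libraries. The defining mesothelial markers msln and upk1b could not be matched. The part of these other tissues and cells in the keratin differences was not tested.

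The ratio of krt8 to krt18a.1 counts compares the RNA of these genes within each library, free of library scaling. It was 3.28, 3.43, 3.48 and 3.34 in control replicates 1, 3, 4 and 5. In depleted replicates 1 to 5 it was 3.46, 2.93, 4.27, 5.04 and 4.02. In recovering replicates 1 to 5 it was 2.83, 2.16, 2.29, 2.04 and 4.15. The highest control ratio was 1.06 times the lowest, whereas the ratio varied 1.72 times among depleted and 2.04 times among recovering libraries. The ratio was below every control library in recovering replicates 1 to 4 and above every control library in recovering replicate 5. These ratios are given as a description without a test, and they are not ratios of transcript numbers because gene lengths were not used. Nor do they give the balance of type II to type I keratins. They leave out other type I keratins such as krt18b, whose means were 26.1, 895 and 170 CPM in control, depleted and recovering testes.

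**Figure D3:**
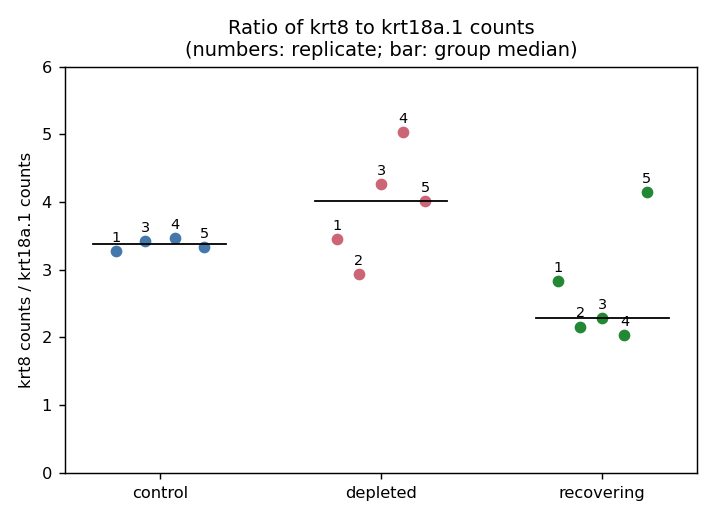
Counts of krt8 divided by counts of krt18a.1 in each library, by group, with replicate numbers and the group median as a bar. The 4 control libraries sit between 3.28 and 3.48, while depleted libraries span 2.93 to 5.04 and recovering libraries 2.04 to 4.15.

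krt5 was present at 2.37 to 4.92 CPM in control replicates 1, 4 and 5 and at 434 CPM (4177 counts) in control replicate 3. In depleted replicates 1 to 5 it stood at 8.66, 18.5, 4.46, 23.5 and 24.9 CPM. In recovering replicates 1, 2, 3 and 5 it stood at 2.61, 2.64, 2.45 and 5.68 CPM, and in replicate 4 at 2101 CPM (19332 counts). Thus 1 library in each of control and recovering testes held a level that no other library approached. Its fitted value on the log2 scale was -2.80 for depleted against control (SE 2.04, adjusted p = 0.237 in edgeR). It was 4.72 for recovering against depleted (SE 2.16, adjusted p = 0.0732) and 1.93 for recovering against control (SE 2.07, adjusted p = 0.728). Thus 0 of the 3 differences were called in edgeR, and 1, recovering against depleted, had an unadjusted edgeR p under 0.05. In that comparison 13768 of the 21277 tested genes had an unadjusted edgeR p under 0.05. limma-voom called 0 of the 3, and DESeq2 gave no adjusted p for krt5. Without control 3 and recovering 4 the fitted value for depleted against control testes became 2.20. From depleted to recovering testes it became -2.24, and between recovering and control testes it became -0.040. Those libraries were left out because of their krt5 counts, so these values are a description with no test. Depleted replicate 3, at 4.46 CPM (37 counts, 95% Clopper-Pearson interval 3.14 to 6.15 CPM), overlapped control replicate 5.

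The genes most like krt5 across the 14 libraries were cldnb, a tight junction claudin (Pearson r of log2 CPM 0.904), upk1a, a uroplakin of surface membranes (0.872), and the keratin krt97 (0.855). Without control 3 and recovering 4 these correlations were 0.582, 0.443 and 0.234 over 12 libraries, so the likeness rested on those libraries. cldnb stood at 12.4 CPM in control 3 and 50.6 CPM in recovering 4, against at most 2.12 CPM elsewhere. krt97 stood at 56.8 CPM in control 3 and 249 CPM in recovering 4, and at 19.3 CPM in depleted replicate 2. upk1a stood at 41.3 CPM in recovering 4 and at 4.47 CPM in control 3, against at most 2.54 CPM in the other libraries. Among all 21277 tested genes, 4.72% had control 3 and recovering 4 as the highest library of their respective groups. Among the 44 tested epithelial genes of the list described next, 17 did (38.6%), as did krt5 and epcam. Skin and surface epithelium markers, 5 of 6 matched and tested, summed to 463 CPM in control 3 against 107 to 129 CPM in the other control libraries, and to 1595 CPM in recovering 4 against 83.8 to 247 CPM in the other recovering libraries. In both libraries most of that sum was krt91, at 410 and 1531 CPM. The same markers summed to 724 to 1374 CPM in the depleted libraries, where krt91 and agr2 rose, col17a1a fell, and tp63 and krtt1c19e were not called. The epidermal regulator tp63 stood at 17.1 CPM in control 3 and 17.5 CPM in recovering 4, and at 3.01 to 16.8 CPM across the rest. The part of attached skin or other epithelium in these values was not tested.

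**Figure D4:**
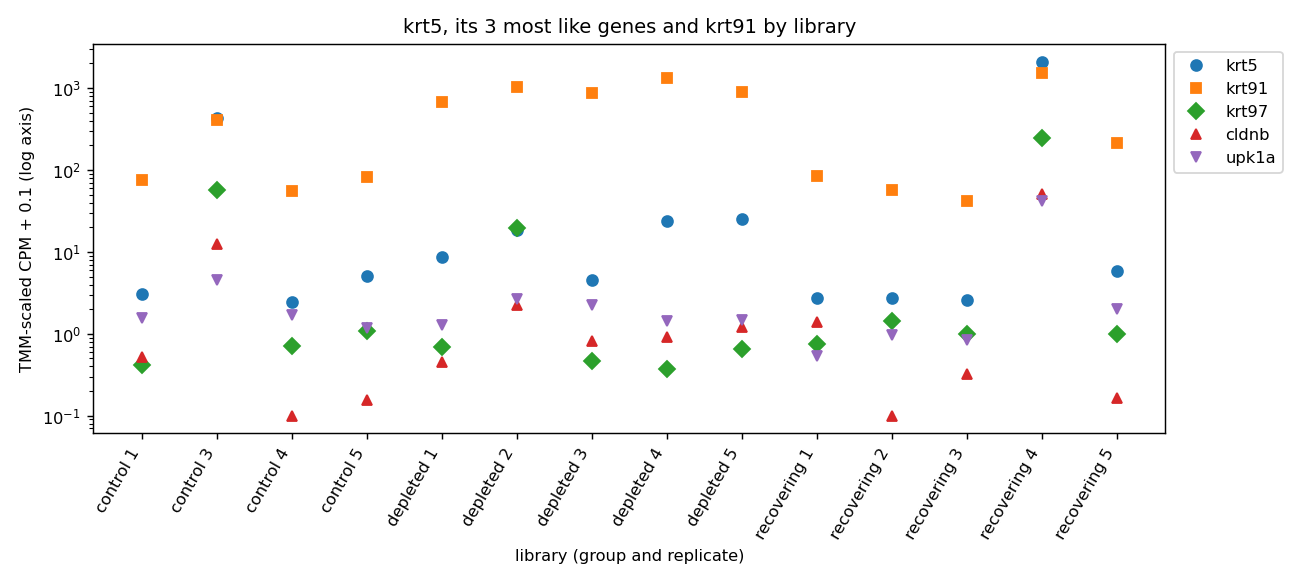
TMM-scaled CPM plus 0.1, on a log axis, of krt5, its 3 most like genes (cldnb, upk1a and krt97) and the keratin krt91 in each library. All 5 genes have their highest control value in control 3 and their highest recovering value in recovering 4, and krt91 is also high, at 680 to 1313 CPM, in the depleted libraries.

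Without control 3 and recovering 4, krt8, krt18a.1, krt4 and epcam kept both their rise in depleted testes and their fall in recovering testes. Their log2 fold changes in depleted against control testes were then 3.65, 3.41, 3.97 and 2.18 (edgeR adjusted p from 0.00054 to 0.00508), and of all genes tested in that fit 57.8% were called, 29.8% higher and 28.0% lower. From depleted to recovering testes they were -2.20, -1.79, -2.10 and -1.66 (adjusted p from 0.00432 to 0.0126), and of all genes tested 50.7% were called, 24.3% higher and 26.4% lower. Between recovering and control testes 0 of the 21753 genes tested (0.00%) were called in that edgeR fit, with 2001 at an unadjusted p under 0.05. In the fit of all libraries 16.0% of genes had an unadjusted p under 0.05 in this comparison. Without the 2 libraries 3 of the 5 members had an unadjusted p under 0.05. For epcam, control 3 and recovering 4 were each the highest library of their group. Leaving them out lowered its control and recovering means, so its values in that fit are not an independent check.

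A wider list of epithelial genes, other keratins, junction proteins and regulators, was read from the same fit. Of 63 such genes besides the 5 members, 51 were matched to an identifier and 44 were tested. In depleted against control testes 15 rose, 11 fell and 18 were not called, with a median log2 fold change of -0.36 beside 0.03 over all genes. All tested genes gave 34.2% higher and 32.1% lower in that comparison, so the list's share of rises was near the background. From depleted to recovering testes 10 rose, 11 fell and 23 were not called (median 0.17, and -0.04 over all genes), beside 28.7% higher and 30.5% lower among all tested genes. Between recovering and control testes 0 of the 44 were called in edgeR, where only 0.451% of all tested genes were called. Without control 3 and recovering 4 the first comparison gave 16 higher and 7 lower of 42, beside 29.8% and 28.0% of all genes in that fit. The second gave 3 higher and 13 lower, beside 24.3% and 26.4%. Of the 44 list genes 17 had these libraries as the highest of their groups, and leaving them out lowers the control and recovering means of such genes. These counts are therefore a description with no test.

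Within the list, 5 of 9 other keratins rose in depleted testes, krt94, krt15, krt18b, krt91 and krt92, and 1 fell, krt222, beside 34.2% and 32.1% of all tested genes. The krt92 level rested mainly on depleted replicate 2, at 410 CPM, and the fall of krt222 was not called without control 3 and recovering 4. The 5 list genes with the highest mean level, 4 keratins and the membrane-binding annexin anxa1a, all rose. krt94 went from 106 ± 52.9 CPM (SD, n = 4) in control to 2833 ± 672 CPM (SD, n = 5) in depleted and 520 ± 398 CPM (SD, n = 5) in recovering testes, a log2 fold change of 4.74 in depleted against control testes (SE 0.71, edgeR adjusted p = 0.000133). The type I keratin krt15 went from 66.5 ± 31.8 CPM to 1763 ± 428 CPM and 247 ± 268 CPM in the same groups, with a log2 fold change of 4.73 in depleted testes (SE 0.78, adjusted p = 0.000234). krt18b, the copy of krt18 near krt4, went from 26.1 ± 11.3 CPM to 895 ± 611 CPM and 170 ± 204 CPM, with a log2 fold change of 5.10 (SE 0.88, adjusted p = 0.000325). krt94, krt15 and krt18b fell again from depleted to recovering testes, by 2.45, 2.84 and 2.40 on the log2 scale (adjusted p = 0.00373, 0.00296 and 0.0115). anxa1a rose by 3.52 (SE 0.72, adjusted p = 0.00095) and fell by 1.61 in recovering testes (adjusted p = 0.0347). krt91 rose by 2.61 (SE 1.03, adjusted p = 0.0381), and its value in recovering against depleted testes, -1.30, was not called (adjusted p = 0.224).

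Other roles were split, and their counts stand beside 34.2% of all tested genes higher and 32.1% lower in depleted testes. Counts without control 3 and recovering 4 stand beside 29.8% higher and 28.0% lower of all genes in that fit. Of 11 tested adhesion and tight junction genes 5 rose and 1 fell in depleted testes. Of 6 hemidesmosome and basement membrane genes, which anchor basal epithelial cells, 1 rose and 4 fell, or 2 without control 3 and recovering 4. Of 9 transcription and splicing regulators of epithelia 1 rose and 4 fell, and without these libraries 2 rose and 4 fell. Of 4 desmosome and envelope genes 1 rose, and of 5 surface protease regulators and secreted proteins 2 rose and 1 fell, or 2 and 0 without these libraries. The following were picked as examples after their values were seen. cldn7a, a claudin, rose by 3.36 on the log2 scale in depleted testes (SE 0.42, adjusted p = 5.42e-05), and dsc2l, a desmosomal cadherin, by 3.11 (SE 0.34, adjusted p = 3.33e-05). esrp1, an epithelial splicing regulator, fell by 3.44 (SE 0.64, adjusted p = 0.000527), ovol1a, a transcription factor, by 3.11 (SE 0.72, adjusted p = 0.00221), and col17a1a, a hemidesmosomal collagen, by 2.64 (SE 0.84, adjusted p = 0.0136).

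**Figure D5:**
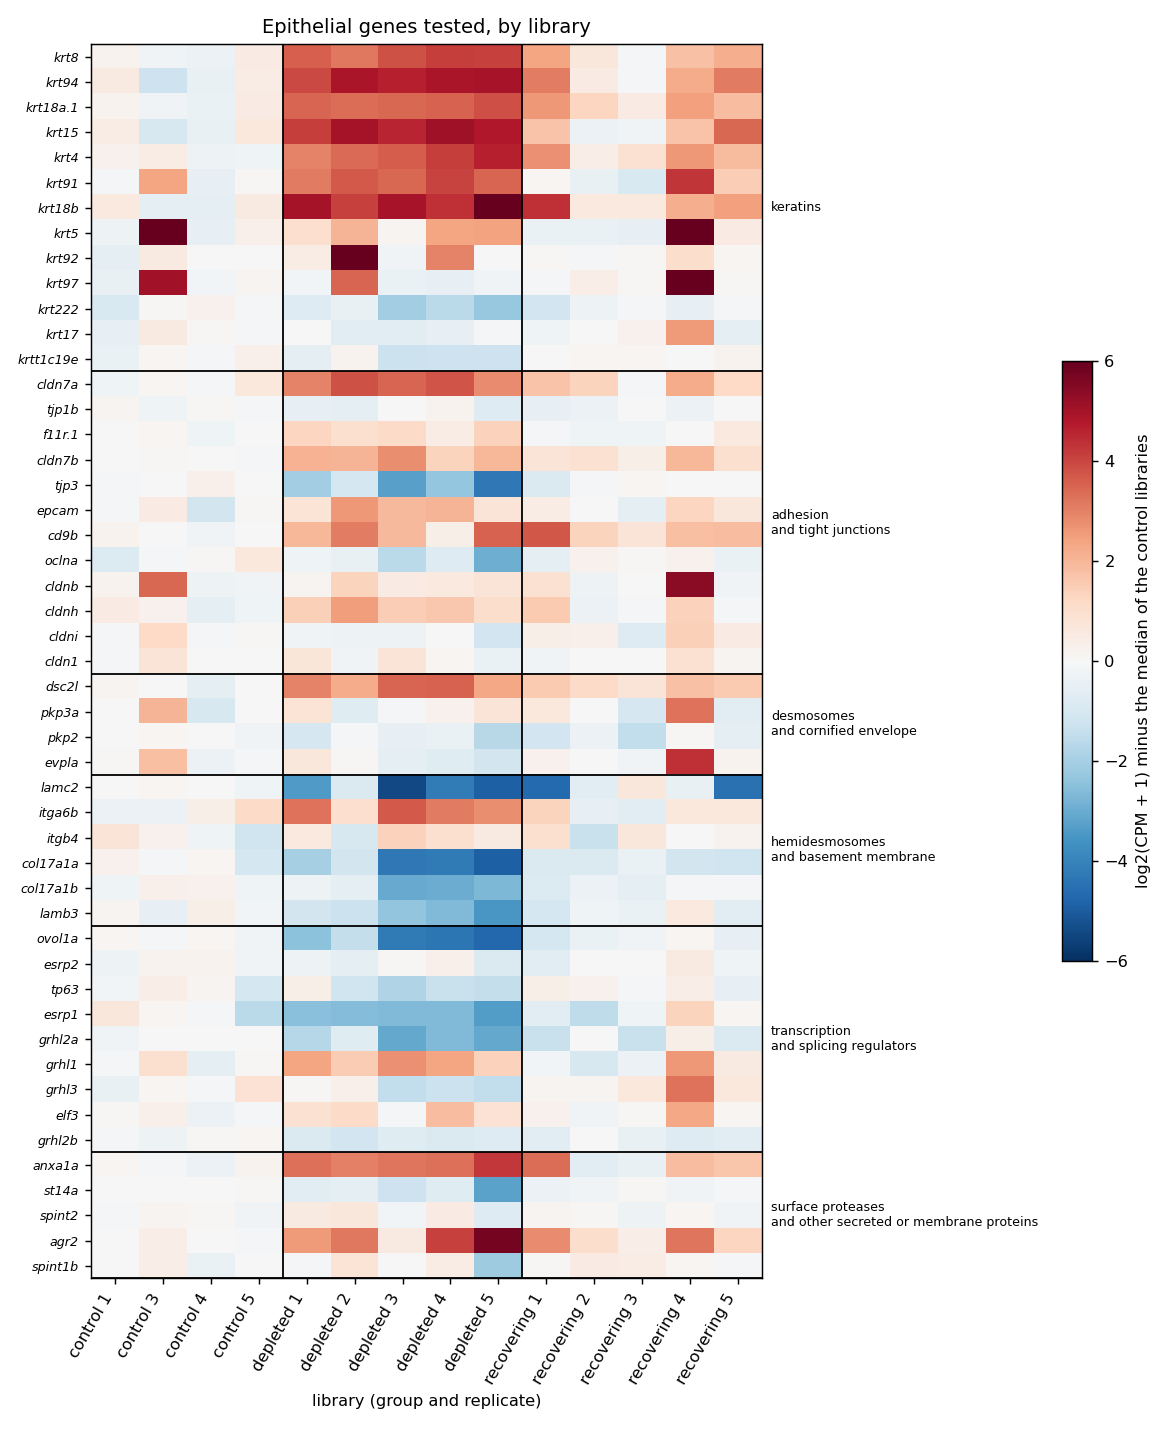
Each of the 49 tested epithelial genes (5 members and 44 others) by library, as log2(CPM + 1) minus the median of the control libraries, grouped by role, ordered by mean level within a role, with colours capped at the ends of the scale. Abundant keratins are red across the 5 depleted libraries, many regulators and basement membrane genes are blue there, and krt5, krt97 and cldnb are red in control 3 and recovering 4.

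Across the 14 libraries the members differed in how many genes shared their pattern, as a description over libraries that fall into 3 groups. krt8 had 2152 other genes with a Pearson r of log2 CPM over 0.9, krt18a.1 had 1467 and krt4 had 1371, whereas epcam had 5 and krt5 had 1. Without control 3 and recovering 4 krt8 had 2372 such genes, krt18a.1 1807, krt4 1888, epcam 64 and krt5 75. The number was higher for every member in this smaller set, and the libraries left out had been chosen for their krt5 counts. No other pair of libraries was left out, so the increases cannot be assigned to those libraries. The genes with a symbol most like krt8 were UBE2E3, a ubiquitin-conjugating enzyme (r = 0.990), ILDR2, an immunoglobulin-like receptor (0.989), and SERPINB8, a protease inhibitor (0.988). For krt18a.1 they were cyba, an NADPH oxidase subunit (0.989), the ion cotransporter SLC12A4 (0.988) and the calponin CNN2 (0.987). For krt4 they were the extracellular matrix gene DPT (0.990), the vesicle GTPase RAB2A (0.979) and the heparan sulfate enzyme HS2ST1 (0.978). For epcam they were the ectonucleotidase gene entpd8 (0.923), TM2D3 (0.910) and the potassium channel gene KCNJ1 (0.908). Among the 21276 other genes, krt8 ranked 21st by likeness to krt18a.1 (r = 0.977) and krt4 ranked 205th (r = 0.956). epcam had an r of 0.778 to 0.790 with the 3 keratins, and krt5 had an r of 0.0910 to 0.394 with the other members.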

How the data were processed

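Total RNA of testes was made into TruSeq v2 libraries, per the labels' protocols. The deposited values are counts, whole numbers per Ensembl gene identifier, as the values show. Per the submitters' processing notes, FastQC 0.10.1, TopHat2 2.0.5, SAMtools 0.1.18, HTSeq, DESeq and the build Zv9 were used, without stated roles. Strand and multi-mapping settings are not given in the sources used here.

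Symbols came from a table that paired 21948 of the identifiers; listed genes were matched regardless of case or through an unambiguous RefSeq synonym. edgeR 4.0.16 in R 4.3.3 kept 21277 genes (filterByExpr, 99.8% of counts), scaled by TMM, and fitted group alone to 14 libraries with quasi-likelihood F-tests. A standard error is the log2 fold change over the square root of F. Alternatives used DESeq2 1.42.0 and limma 3.58.1. The test was also run on simulated data, with the same spread for every gene and few genes changed. The real data differ from that setting in both respects, so that run checks the code only. Intervals are exact Clopper-Pearson and cover counting error only. P-values set group differences against the spread between libraries described as biological replicates. In the main fit that spread was estimated over all groups together, although it can differ between groups. Same-group libraries differed by a chi-square of 13.9 to 111 per degree of freedom over 26 pairs, so none was another library sequenced again. This cannot show whether libraries came from different fish.

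Named genes were the members, each member's 3 most like genes with a symbol (log2 CPM, prior count 2) and the 5 most abundant genes of the epithelial list. Members and lists were chosen with earlier results of these data known. Leaving out control 3 and recovering 4, and the robust edgeR fit, were chosen after the krt5 counts were seen. No sequences or genome coordinates are shown.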

Additional observations from a re-analysis of the deposited data

Results flagged for a closer look

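By Dixon's criterion 9 of 36 sets, each holding 1 measure in 1 group, contained an extreme library. About 1 in 20 sets, or 1.80, would by chance if the sets were independent and normally distributed. These sets share libraries and hold values not on a log scale, so 1.80 is only a rough guide. krt5 stood at 434 CPM in control 3, against 4.92 CPM in the next control library, and at 2101 CPM in recovering 4, against 5.68 CPM in the next recovering library. krt91 stood apart in the same libraries, at 410 CPM in control 3 (next 81.1 CPM) and 1531 CPM in recovering 4 (next 215 CPM). krt15 stood at 705 CPM in recovering 5 (next 212 CPM). krt18b stood at 1950 CPM in depleted 5 (next 796 CPM) and at 525 CPM in recovering 1 (next 135 CPM). anxa1a stood at 1726 CPM in depleted 5 (next 918 CPM). The total of control 5 was 48646941 counts, against 11525600 in the next control library.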

How the results depend on the processing

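Each result was recomputed in 26 alternatives, or 25 for krt5, which had no adjusted p from DESeq2, and 14 of them left out 1 library. krt8, krt18a.1, krt4 and epcam kept their rise in depleted testes in all 26, at log2 fold changes of 3.35 to 3.93, 3.12 to 3.67, 3.40 to 3.999 and 1.56 to 2.22. The fall of krt8, krt18a.1 and krt4 in recovering testes was also called in all 26, and that of epcam in 22; it was lost at an adjusted p under 0.01, where the value itself is unchanged, among libraries under 20000000 counts, with the replicate block and without depleted 2 (adjusted p from 0.0545 to 0.0643 in the last 3). krt5 changed sign in depleted against control testes with limma-voom (0.33), with the replicate block (0.15) and without control 3 and recovering 4 (2.20), in recovering against depleted testes with the block (-0.75) and without both libraries (-2.24), and in recovering against control testes with the block (-0.60) and without both libraries (-0.040). Leaving out 1 library took krt5 from -3.22 to 2.21, from -2.25 to 5.05 and from -5.05 to 6.98 in these comparisons; the extremes that changed sign came without control 3 in the first and without recovering 4 in the others, and without control 3 the value in recovering against depleted testes, 4.77, was called (adjusted p = 0.0442). For recovering against control testes, members called numbered 1 in the main analysis, 3 with DESeq2 and with limma-voom, 2 among libraries under 20000000 counts and 2 in the fit of only these groups. They numbered 0 at an adjusted p under 0.01, with the replicate block and without both libraries, and 0 to 3 when 1 library was left out, with 3 or 4 members at an unadjusted p under 0.05 wherever edgeR called 0. krt8 was called without recovering 3 (adjusted p = 0.0305), with DESeq2 (0.0103), with limma-voom (0.0115) and under 20000000 counts (0.0392), and krt4 without recovering 3 (0.0453), with DESeq2 (0.00429), with limma-voom (0.0134) and in the fit of only these groups (0.0452). Over all genes that comparison gave 96 calls, against 1307 with DESeq2, 2374 with limma-voom, 1254 in the fit of only these groups, 236 under 20000000 counts, 9 with the replicate block, 0 at an adjusted p under 0.01 (3394 at an unadjusted p under 0.05), 0 without both libraries (2001) and 0 to 556 when 1 library was left out (2401 to 3311 at an unadjusted p under 0.05 in the 7 fits with 0). Recovering against depleted testes gave 7987 calls at an adjusted p under 0.01, against 12598. The cause of these shifts was not tested. Replicate numbers are shared by the groups, but deviations of same-numbered libraries correlated at -0.159 to 0.241 (mean 0.0245, 13 pairs), so the libraries were taken to share only a number. Total counts in place of TMM moved the median of all genes in depleted against control testes from 0.03 to -0.34, and no member call changed. krt5 had 24 to 37 counts in 4 libraries, where counting error limits its value.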

Other observations

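Some further keratin values belong to single libraries. krt92 stood at 410 CPM in depleted 2 and 27.7 CPM in depleted 4, and at 6.63 CPM or less in the other 12 libraries. krt96, too rare overall to be tested, stood at 25.4 CPM in recovering 4 and below 1 CPM in the other libraries. The claudin gene cldne, also not tested, stood at 6.14 CPM in control 3 and 19.7 CPM in recovering 4, and below 1 CPM elsewhere.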
